A study of Rattus norvegicus with 372 samples.

Results

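Acetaminophen at 10000 µM was set against diclofenac at 400 µM in primary rat hepatocytes, within each of 2 batches. The wells were chosen by the labelled chemical, concentration and batch, with 3 wells of each drug in each batch. That gave 12 libraries of the whole transcriptome (WT) assay, which was the main measurement, and 12 libraries of the smaller surrogate (ST) assay, which served as a check. These are 24 of the 372 libraries of the series, in which 14 chemicals were each tested at 2 concentrations. Cells were freshly isolated from male Wistar rats, with each batch from a different rat, and kept in a collagen sandwich in 96-well plates. Every well, vehicle included, held the same medium with insulin, dexamethasone and EGF plus 0.5% DMSO for 24 h. Vehicle wells, with DMSO alone, numbered 3 in batch 1 and 6 in batch 2. Acetaminophen at 400 µM, also 3 wells a batch, was used where a matched concentration was needed. Both assays are TempO-Seq, in which pairs of detector oligos ligate on their target RNA in the crude lysate and the ligated pairs are counted. Both read the same lysates.

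The wells of a batch came from 1 rat, so tests within a batch compare wells and not animals, and a gene was called only where both batches passed with the same sign. In batch 1 acetaminophen was on plate 5, and diclofenac and the vehicle wells were on plate 4, so that drug and plate cannot be told apart there. In batch 2 acetaminophen was on plate 3 and diclofenac on plate 2, each with 3 vehicle wells of its own. The drug wells held the same rows and columns of their plates in both batches. WT libraries of the drugs and vehicle held 3639630 to 8882290 reads, and replicate wells correlated at 0.969 or more over genes on the log2 scale. Acetaminophen libraries were the more concentrated, with 14.2 to 20.2% of reads in the 10 highest genes, against 9.49 to 10.8% with diclofenac and 10.5 to 14.0% with vehicle. The cells carried hepatocyte markers, and none of the 10 matched marker genes was at 0 in any group. Summed markers of Kupffer cells and leukocytes stayed between 35.8 and 168 CPM (counts scaled to library size and TMM factor), while the hepatocyte markers summed to 33874 to 46172.5 CPM with vehicle, 28836 to 52418 CPM with acetaminophen and 6369 to 8575 CPM with diclofenac. The Kupffer cell sum was 87.9 to 168 CPM with vehicle, 57.2 to 110 CPM with acetaminophen and 35.8 to 78.5 CPM with diclofenac. Summed markers of stellate cells and fibroblasts (13 of 14 matched) were 325 to 487 CPM with vehicle, 191 to 364 CPM with acetaminophen and 76.8 to 192 CPM with diclofenac. Those of bile duct cells (10 matched) were 145 to 171 CPM, 73.8 to 124 CPM and 173 to 289 CPM in the same order, and in both lists the drugs' wells did not overlap in either batch. Single genes carried these sums, Slc4a2 in the bile duct list and Reln in the stellate list, and the list medians of L2FC between the drugs went the other way, at 1.27 over 4 tested bile duct markers and -0.52 over 5 tested stellate markers. Up to 6 genes of these lists were at 0 in every well of a group. The part of these other cells in the results was not tested. In lysed wells, fewer cells of a type and less RNA per cell cannot be told apart.

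Acetaminophen is an analgesic that hepatocytes clear mostly by sulfation and glucuronidation, and cytochrome P450 enzymes turn part of it into a reactive quinone imine that consumes glutathione. Diclofenac is an anti-inflammatory drug that inhibits the cyclooxygenases, forms reactive acyl glucuronides and quinone imines, and acts on mitochondria. Differentiated hepatocytes make plasma proteins, urea, bile acids and glucose under the control of factors such as HNF4α. Stressed cells switch on distinct programmes, among them the integrated stress response through ATF4, the unfolded protein response of the endoplasmic reticulum, the NRF2 antioxidant response, the heat shock response and the p53 response.

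Both drugs lowered a broad set of hepatocyte genes, yet they parted on which of these genes fell and on which stress genes rose. Diclofenac lowered nearly all plasma protein genes, which acetaminophen left at mixed levels, and it raised genes of the integrated stress response, chaperones of the endoplasmic reticulum, Mt1 and Mt2A, and the PPARα targets Acot2 and Cyp4a1. Acetaminophen lowered Fgf21, Pck2 and 22 of 38 tested genes of lipid oxidation (57.9%, against 31% of all genes), and raised Nqo1, Gclc, Hspa1a, Cdkn1a and Ccl2 above their levels with diclofenac. Of 10197 genes tested by edgeR's quasi-likelihood test with Benjamini-Hochberg adjustment, 2766 (27.1%) were higher with acetaminophen than with diclofenac in both batches and 2788 (27.3%) were lower. Scaled to total counts, with no correction for composition, the same comparison gave 1464 higher and 4409 lower, because that scaling shifted the median L2FC (log2 fold change) of all genes by -0.49 in batch 1 and -0.54 in batch 2. Differences are therefore given relative to the bulk of genes. Opposite calls in the batches were made for 56 genes.

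**Figure D1:**
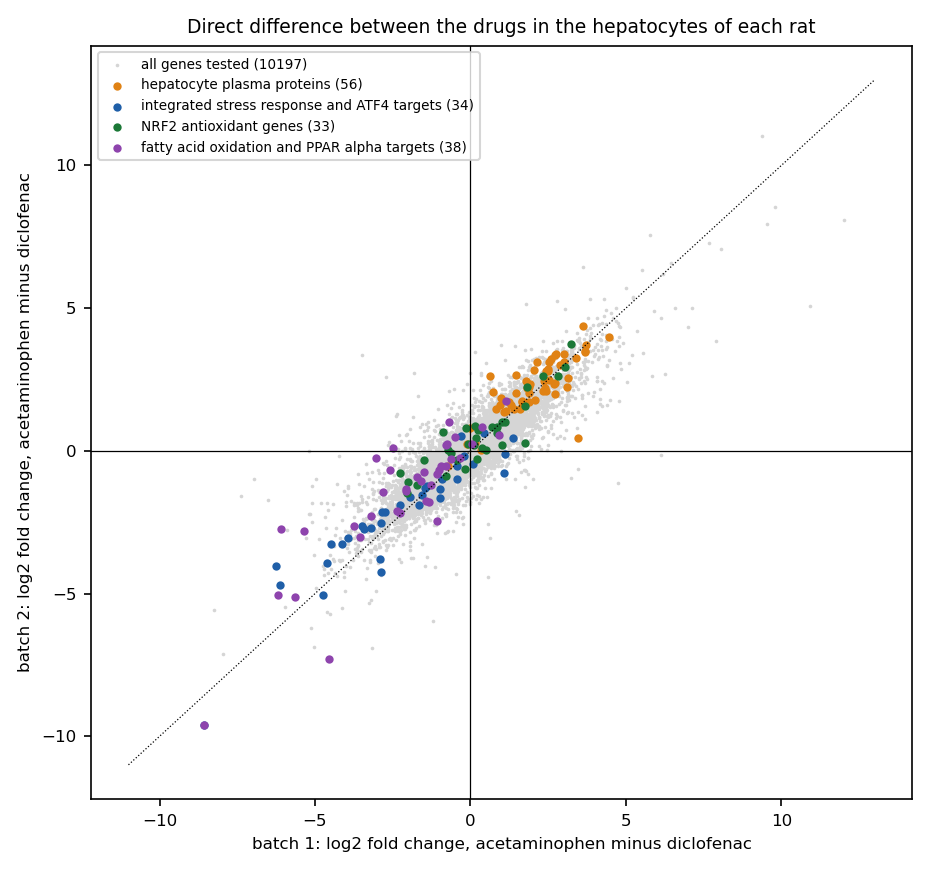
Direct difference between the drugs, as L2FC of acetaminophen 10000 µM minus diclofenac 400 µM, in batch 1 (x axis) and batch 2 (y axis), with 1 point per tested gene and a dotted line where both batches are equal. Plasma protein genes lie in the upper right, and targets of ATF4 and most genes of fatty acid oxidation in the lower left.

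The vehicle wells measure how far the plates themselves differed. In batch 2 no gene passed the adjusted threshold between the vehicle wells of plate 3 and those of plate 2 by edgeR's quasi-likelihood test, although 1448 genes had an unadjusted p under 0.05 and the lowest adjusted p was 0.0979. Subtracting that plate difference in batch 2 left 2881 genes higher and 2926 lower with acetaminophen, against 3417 and 3336 without the subtraction. In batch 1, acetaminophen at 400 µM sat on the same plate as acetaminophen at 10000 µM and differed from the vehicle wells of the other plate at 18 genes upward and 11 downward.

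Loss of hepatocyte genes was common to both drugs. Across 9 lists of hepatocyte functions, which hold 346 genes, 267 genes passed the filter on low counts. Of these, 135 (50.6%) were lower than vehicle with both drugs in both batches, against 14.9% of all genes tested (1518 genes). With acetaminophen 168 of the 267 fell (62.9%, against 31% of all genes), and with diclofenac 188 fell (70.4%, against 24.8%). Diclofenac alone lowered 53, acetaminophen alone lowered 33, and 12 were higher with both, against 12.1% of all genes. The 2 drugs share vehicle wells in these counts. In batch 2 alone, with each drug set against the vehicle wells of its own plate, 152 of the 267 were lower with both (56.9%, against 19.7% of all genes). Over all genes that count of batch 2 was 2009, and 2222 with all 6 vehicle wells.

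**Figure D2:**
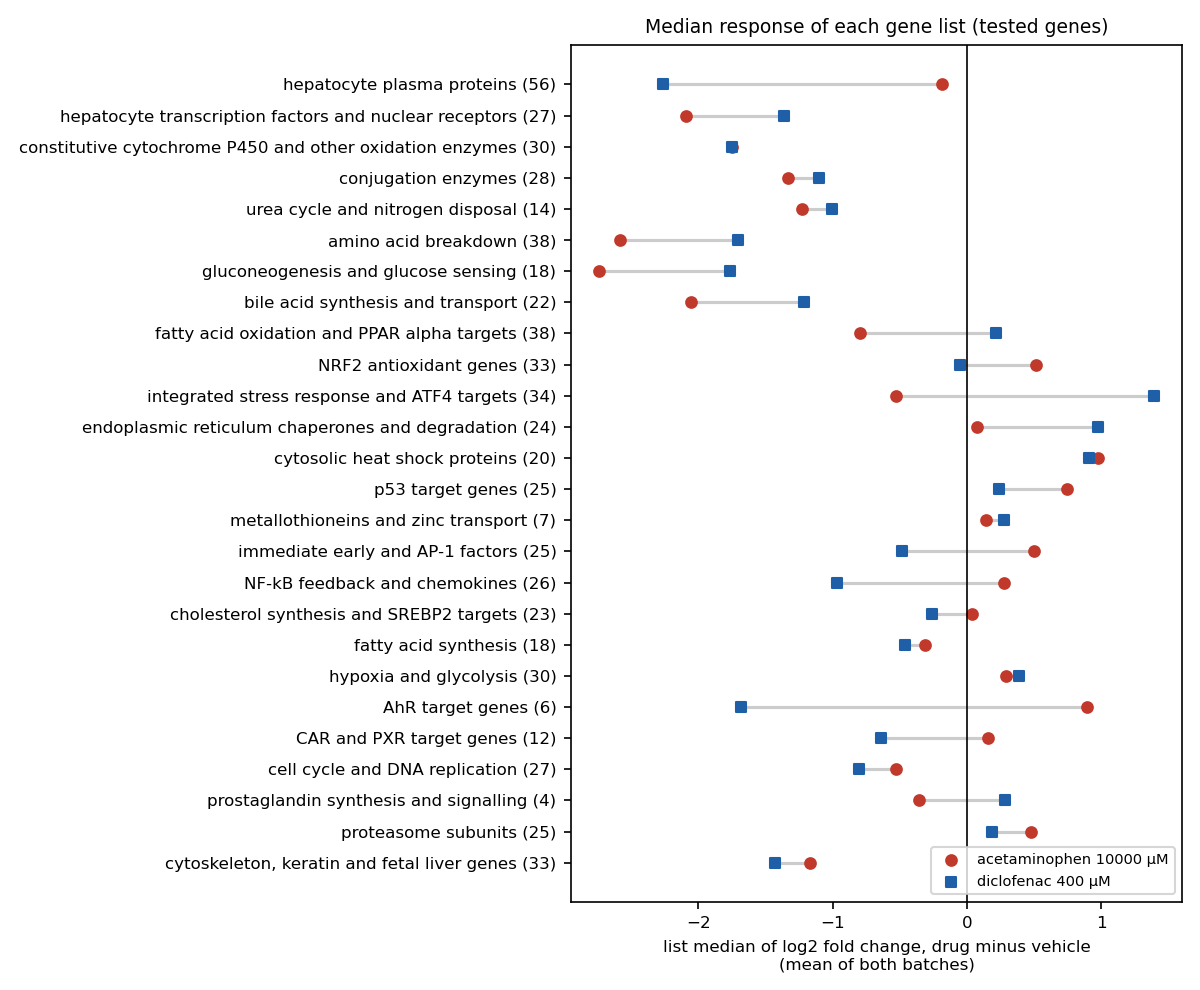
Median L2FC of each gene list against vehicle, averaged over batches (x axis), for acetaminophen 10000 µM (red circles) and diclofenac 400 µM (blue squares), with the number of tested genes in parentheses. Medians of amino acid breakdown, gluconeogenesis and cytochrome P450 genes are below 0 with both drugs, and the plasma protein and integrated stress response lists show the widest gaps of the larger lists.

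Genes of nitrogen disposal were among those lowered by both drugs. Cps1, the entry enzyme of the urea cycle, stood at 365, 304 and 275 CPM in the vehicle wells of batch 1. It stood at 21.6, 26.5 and 26.7 CPM with acetaminophen and 10.3, 19.2 and 20.8 CPM with diclofenac. In batch 2 vehicle wells held 237 to 329 (median 293) CPM, acetaminophen wells 26.6, 24.1 and 17.7 CPM and diclofenac wells 22.9, 12.2 and 13.3 CPM. All drug wells lay below all vehicle wells. L2FC against vehicle was -3.65 ± 0.24 in batch 1 and -3.63 ± 0.24 in batch 2 with acetaminophen, and -4.23 ± 0.24 in batch 1 and -4.13 ± 0.25 in batch 2 with diclofenac (adjusted p = 1.93e-22 and 7.25e-23, and adjusted p = 4.73e-25 and 5.90e-25; edgeR). Otc, the step after Cps1, had mean L2FC of -3.26 with acetaminophen and -4.39 with diclofenac. Of 14 tested genes of the urea cycle list, 8 fell with both drugs, where 14.9% of all genes did.

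Genes of amino acid breakdown were also lowered, with 29 of 38 tested lower with both drugs, where 14.9% of all genes were. List medians were -2.58 with acetaminophen and -1.70 with diclofenac, where the median of all genes was -0.03 and 0.02. Hal, which deaminates histidine, held 25.5, 33.1 and 28.8 CPM in batch 1 vehicle wells, 0.337, 0 and 0 CPM with acetaminophen and 2.8, 5.13 and 3.36 CPM with diclofenac. The acetaminophen wells of batch 1 held 1 count in all, 339-fold (95% counting interval 60.6 to 13416) below vehicle, and the diclofenac wells were between the other groups. Intervals of this kind, given for genes with at most 3 counts in each well of a side, cover counting error only. In batch 2 the L2FC of Hal was -5.12 ± 0.39 with acetaminophen and -2.89 ± 0.29 with diclofenac. Haao and Dao, which break down tryptophan metabolites and D-amino acids, were lower than vehicle with both drugs as well.

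Genes of gluconeogenesis and glucose sensing followed, with 11 of 18 lower with both drugs, where 14.9% of all genes were. Tkfc, a kinase of fructose metabolism that phosphorylates glyceraldehyde, fell from 99.9 to 129.6 CPM to 0.674 to 2.21 CPM with acetaminophen and 6.38 to 8.81 CPM with diclofenac in batch 1, and from 58.8 to 96 to 1.57 to 1.77 and 8.79 to 14.3 CPM in batch 2. The 3 groups did not overlap in either batch, with acetaminophen lowest. Its L2FC between the drugs was -2.39 ± 0.36 in batch 1 and -2.72 ± 0.26 in batch 2 (adjusted p = 2.44e-08 and 3.01e-15; edgeR). The median L2FC between the drugs in this list was -1.21, and -0.81 with genes at 0 set to their bound.

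Genes of the conjugation and oxidation of drugs also declined. Sult1a1, a sulfotransferase that acts on phenols such as acetaminophen, fell from 173 to 222 CPM to 4.72 to 9.64 CPM with acetaminophen and 3.89 to 9.26 CPM with diclofenac in batch 1. In batch 2 it fell from 307 to 427 to 12 to 13.1 and 5.18 to 15.5 CPM. The drugs' ranges overlapped in both batches and lay far below vehicle. In batch 2 the overlap rests on the first diclofenac well, at 15.5 CPM. Without that well L2FC between the drugs there went from 0.43 ± 0.22 (adjusted p = 0.0736; edgeR) to 1.05 (adjusted p = 4.23e-05; edgeR). Of the conjugation enzymes 13 of 28 fell with both drugs, and of the constitutive cytochrome P450 and other oxidation enzymes 18 of 30. Of all genes 14.9% did. Of the genes of bile acid synthesis and transport 14 of 22 tested fell with both, against the same 14.9% of all genes. Among them were Slco1a1, an organic anion uptake carrier (mean L2FC -2.96 and -3.67), and Acox2, which shortens the bile acid side chain (-4.62 and -4.40).

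Transcription factors of the hepatocyte fell as well. Hnf4a, the nuclear receptor central to hepatocyte identity, held 192, 216 and 159 CPM in batch 1 vehicle wells, 15.2, 23.1 and 19.2 CPM with acetaminophen and 35.3, 69.6 and 58.9 CPM with diclofenac. In batch 2 vehicle wells held 147 to 239 (median 191) CPM, acetaminophen wells 37.8, 34.1 and 22.9 CPM and diclofenac wells 52.8, 41.8 and 46.5 CPM. The 3 groups did not overlap in either batch, and acetaminophen was lowest. Between the drugs L2FC was -1.49 ± 0.22 in batch 1 and -0.57 ± 0.18 in batch 2 (adjusted p = 2.47e-08 and 0.00479; edgeR). Without the third acetaminophen well of batch 2 the mean difference was -0.94 and the call was lost. Nr0b2 (SHP), a repressor that bile acid signalling induces, was at 0 in all acetaminophen wells of batch 2, where diclofenac was at least 1.92-fold higher. Of 27 factors tested, 15 fell with both drugs, where 14.9% of all genes did. Between the drugs 5 were higher and 12 lower with acetaminophen, where 27.1% and 27.3% of all genes were.

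Plasma protein genes had the widest median gap between the drugs of the 9 hepatocyte lists. Alb, serum albumin, held 11692, 11228 and 9686 CPM in batch 1 vehicle wells, 11074, 14979.5 and 13088 CPM with acetaminophen and 2878, 3522 and 3884 CPM with diclofenac. Vehicle wells of batch 2 held 12476 to 15085 (median 13810.4) CPM, acetaminophen wells 13506, 14417 and 17698 CPM and diclofenac wells 3159, 3100.1 and 2824 CPM. Acetaminophen and vehicle overlapped in both batches, while every diclofenac well lay below all others. Against vehicle L2FC of Alb was -1.66 ± 0.17 in batch 1 and -2.19 ± 0.12 in batch 2 with diclofenac (adjusted p = 2.72e-13 and 2.67e-28; edgeR), and 0.26 ± 0.17 in batch 1 and 0.14 ± 0.10 in batch 2 with acetaminophen. Between the drugs it was 1.93 ± 0.17 in batch 1 and 2.33 ± 0.13 in batch 2.

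Single plasma protein genes differed by more than Alb. Apoa2, a protein of high density lipoprotein, stood at 14.9, 13.6 and 19 CPM in vehicle wells, 105, 91.9 and 92.9 CPM with acetaminophen and 4.83, 5.84 and 2.4 CPM with diclofenac in batch 1. In batch 2 the values were 35.6 to 63.1 (median 45.3), then 353, 291 and 419, then 37.2, 16.6 and 12.3 CPM. It rose with acetaminophen (L2FC 2.61 ± 0.24 in batch 1 and 2.87 ± 0.21 in batch 2) and fell with diclofenac (-1.85 ± 0.29 in batch 1 and -1.13 ± 0.24 in batch 2, and -1.76 in batch 2 without the first diclofenac well). Apoc2, the cofactor of lipoprotein lipase, differed between the drugs by 3.62 ± 0.28 in batch 1 and 4.39 ± 0.31 in batch 2. Serpind1, heparin cofactor II, fell with both, from 193 to 271 to 10.1 to 18.5 and 1.09 to 4.13 CPM in batch 1, and differed between the drugs by 2.76 ± 0.27 in batch 1 and 3.39 ± 0.26 in batch 2. Of 56 plasma protein genes tested, 55 fell with diclofenac and 0 rose, where 24.8% and 24.7% of all genes did. With acetaminophen 14 rose and 22 fell, where 30.2% of all genes rose and 31% fell, or 7 and 29 when scaled to total counts. Between the drugs 49 were higher with acetaminophen and 1 lower (46 and 1 with total counts), where 27.1% and 27.3% of all genes were. The list median was 2.17. The exception was Mbl2, mannose-binding lectin C, with mean L2FC of -4.36 with acetaminophen and -3.72 with diclofenac. Of 44 of these genes tested in the ST assay 39 were again higher with acetaminophen and 0 lower.

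Oxidation enzymes were split. Cyp1a2, a P450 that also oxidises acetaminophen, held 608, 586 and 407 CPM in vehicle wells, 304, 535 and 489 CPM with acetaminophen and 52.9, 81.2 and 110.3 CPM with diclofenac in batch 1. Acetaminophen overlapped vehicle in both batches and diclofenac did not, with L2FC of 2.45 ± 0.28 in batch 1 and 2.82 ± 0.23 in batch 2 between the drugs. Cyp2e1, the main P450 of quinone imine formation at high acetaminophen, was low in these cultures, at 2.59 to 3.6 and 3.44 to 11.4 CPM in the vehicle wells of batches 1 and 2. It rose with acetaminophen to 13.1 to 15.6 and 15.4 to 24.9 CPM and differed from diclofenac by 1.66 ± 0.32 in batch 1 and 1.44 ± 0.34 in batch 2. Cyp1a1, the classical target of the aryl hydrocarbon receptor (AhR), fell with both drugs, from 24.1 to 34.4 CPM to 0 to 0.803 CPM with acetaminophen and 1.92 to 3.43 CPM with diclofenac in batch 1. Gstm3, a glutathione transferase, was 4.19 ± 0.46 in batch 1 and 3.66 ± 0.41 in batch 2 higher with acetaminophen on the log2 scale, and 4.53 in batch 2 without the first diclofenac well. Abcc2, the canalicular pump of drug conjugates, was lower with acetaminophen (mean -1.96).

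**Figure D3:**
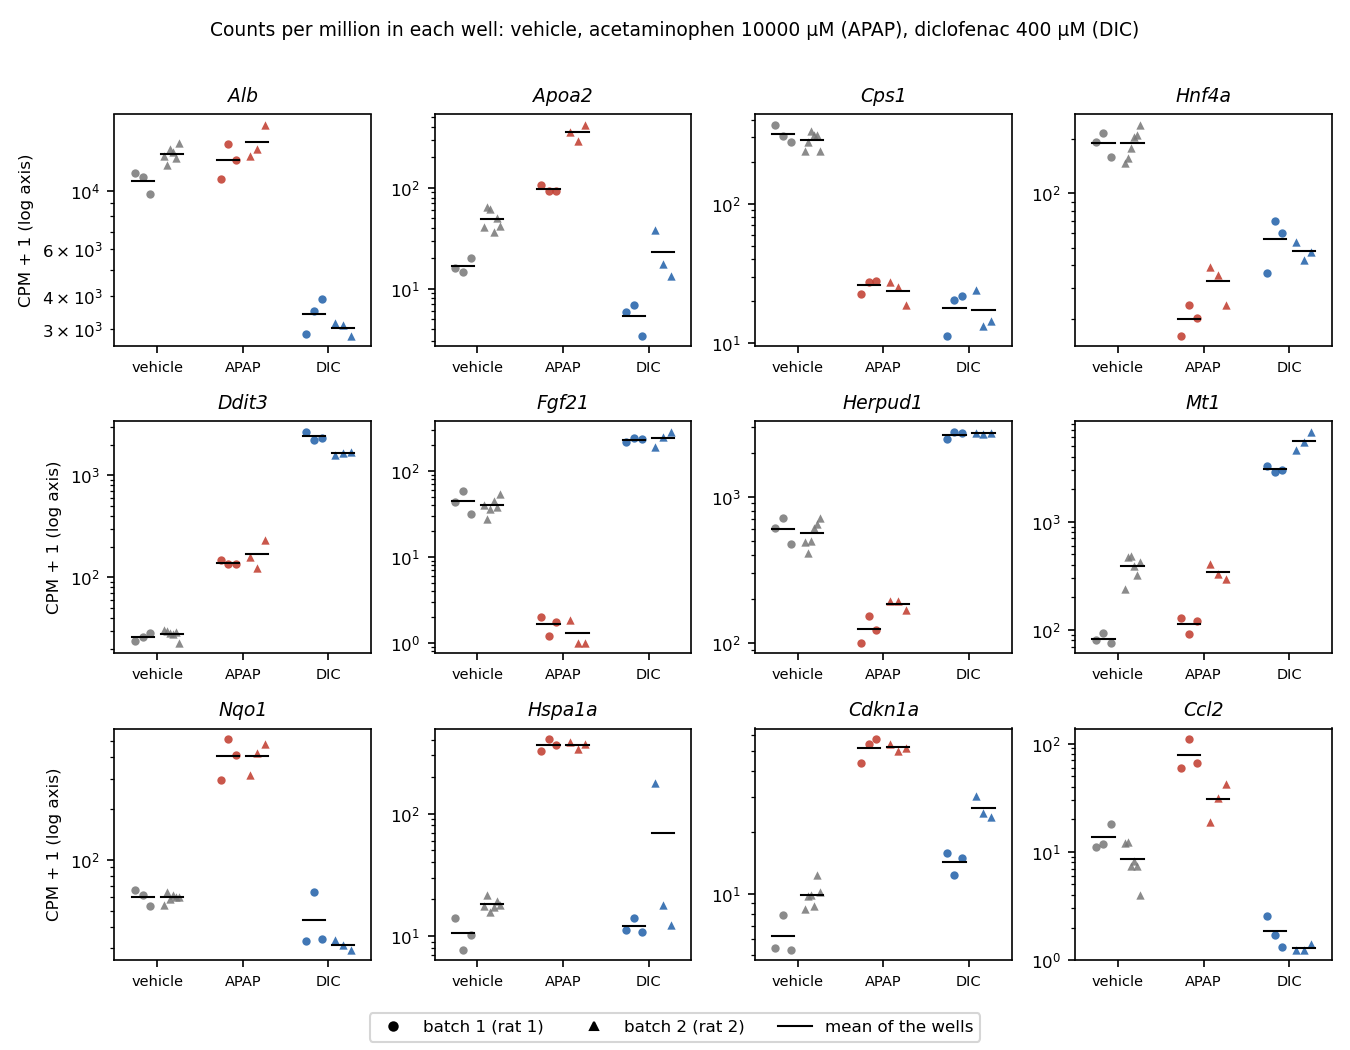
CPM + 1 on a log axis in each well of vehicle, acetaminophen 10000 µM (APAP) and diclofenac 400 µM (DIC), with batch 1 as circles, batch 2 as triangles and the mean of the wells as a line, for 12 genes. Cps1 and Hnf4a were low with both drugs, Alb was low only with diclofenac, Ddit3, Herpud1 and Mt1 were highest with diclofenac, and Nqo1, Hspa1a, Cdkn1a and Ccl2 were highest with acetaminophen.

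Genes of the integrated stress response were mostly lower with acetaminophen than with diclofenac. In this response, kinases that sense amino acid shortage, misfolded protein or mitochondrial trouble slow translation and raise ATF4, which drives genes of amino acid supply and, under lasting stress, the factor CHOP (Ddit3). Of 34 tested genes of the list, 24 rose and 3 fell with diclofenac, where 24.7% and 24.8% of all genes did. With acetaminophen 8 rose and 17 fell, where 30.2% and 31% of all genes did. Directly, 26 were lower and 1 higher with acetaminophen (28 and 0 with total counts), where 27.3% and 27.1% of all genes were. The list median between the drugs was -1.93, and in the ST assay 19 of 27 tested were lower and 0 higher.

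Ddit3 held 22.7, 24.8 and 27.5 CPM in batch 1 vehicle wells, 146, 134 and 134 CPM with acetaminophen and 2654, 2242 and 2325 CPM with diclofenac. In batch 2 it held 21.8 to 29.4 (median 27.7) CPM with vehicle, 156, 123 and 230.4 CPM with acetaminophen and 1589, 1642 and 1704 CPM with diclofenac. Both drugs raised it with no overlap, diclofenac by L2FC 6.59 ± 0.17 in batch 1 and 5.92 ± 0.14 in batch 2 and acetaminophen by 2.47 ± 0.15 in batch 1 and 2.64 ± 0.14 in batch 2. The difference between them was -4.12 ± 0.15 in batch 1 and -3.28 ± 0.17 in batch 2 (adjusted p = 5.56e-36 and 4.20e-29; edgeR).

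Atf4 itself did not pass the test between the drugs. The genes Atf4, Ppp1r15a and Phgdh were picked from this list after their values were seen. Atf4 held 313, 319 and 288 CPM in batch 1 vehicle wells, 649.7, 683 and 713 CPM with acetaminophen and 833, 734 and 793 CPM with diclofenac. Its L2FC between the drugs was -0.21 ± 0.08 in batch 1 and -0.17 ± 0.10 in batch 2 and was not called in both batches, although it was called with total counts (mean -0.71) and without the third acetaminophen well of batch 2 (mean -0.24). Ppp1r15a (GADD34), which restarts translation, rose to 885 to 955 CPM with acetaminophen and 1141 to 1332 CPM with diclofenac from 120.1 to 143 CPM in batch 1. Atf3, a stress-induced repressor, rose with both drugs (mean L2FC 3.09 and 2.58), and its difference between them was 1.12 ± 0.20 in batch 1 and -0.10 ± 0.25 in batch 2, past the threshold only in batch 1.

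Several metabolic targets of ATF4 fell with acetaminophen. Fgf21, a secreted hepatic hormone, held 43.3, 57.1 and 31 CPM in batch 1 vehicle wells, 1.01, 0.201 and 0.769 CPM with acetaminophen and 216, 240.4 and 236 CPM with diclofenac. Diclofenac wells were 391-fold (95% counting interval 189.7 to 973) higher than acetaminophen wells in batch 1, and in batch 2 L2FC between the drugs was -9.59 ± 0.35 (adjusted p = 2.62e-37; edgeR). Pck2, the mitochondrial enzyme that makes phosphoenolpyruvate, went from 11.2 to 16.7 CPM to 0.337 to 1.03 CPM with acetaminophen and to 48.1 to 67.9 CPM with diclofenac, with -6.11 ± 0.32 in batch 1 and -4.69 ± 0.26 in batch 2 between the drugs. Stc2, a secreted glycoprotein, was at 45 to 81.7 CPM with diclofenac against 0.769 to 1.01 CPM in batch 1, and at 19.7 to 21.8 against 0.86 to 1.93 CPM in batch 2. Phgdh, the first enzyme of serine synthesis, fell with acetaminophen from 53.4 to 70.0 to 1.28 to 2.61 CPM in batch 1 and from 41.2 to 74.2 to 2.15 to 3.00 CPM in batch 2, while diclofenac wells held 42.2 to 49.2 and 34.6 to 45.5 CPM. Aldh1l2, a mitochondrial enzyme of folate metabolism, differed by -4.76 ± 0.24 in batch 1 and -5.06 ± 0.27 in batch 2.

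Promoters of this list were read for the C/EBP-ATF response element, the composite site that ATF4 binds with C/EBP factors, written TGATGNAA and searched on both strands over the 250 bases before the start in the RefSeq promoters of assembly GRCr8. It was in 8 of 26 promoters of the list, 30.8%, and in 3.27% of promoters of all 27457 symbols. The windows of Fgf21 and Pck2 are shown because these genes fell with acetaminophen and rose with diclofenac. They lie at chr1:105221492-105221539 on the minus strand and chr15:32997603-32997641 on the plus strand, and capitals mark the element, here on the strand opposite to the gene.
Fgf21: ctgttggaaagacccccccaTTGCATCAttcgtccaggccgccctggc
Pck2: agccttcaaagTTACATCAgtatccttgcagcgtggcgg
A match is a description of the letters and not a tested site.

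The endoplasmic reticulum list rose with diclofenac, at 18 of 24 tested genes, and 1 fell. Of all genes 24.7% rose and 24.8% fell with diclofenac. With acetaminophen 11 rose and 8 fell, where 30.2% and 31% of all genes did. Directly, 17 were lower and 1 higher with acetaminophen than with diclofenac (18 and 0 with total counts), where 27.3% and 27.1% of all genes were. Herpud1, a membrane protein of degradation from the reticulum, held 613, 718 and 475 CPM in batch 1 vehicle wells, 99.7, 152 and 123 CPM with acetaminophen and 2465, 2761 and 2701 CPM with diclofenac. In batch 2 it held 411 to 712 (median 554), 194, 193 and 167 and 2716, 2663 and 2734 CPM in the same order. It moved oppositely, below vehicle with acetaminophen (L2FC -2.27 ± 0.18 in batch 1 and -1.60 ± 0.12 in batch 2) and above it with diclofenac (2.13 ± 0.18 in batch 1 and 2.27 ± 0.11 in batch 2). Creld2, a secreted stress-induced disulfide isomerase, was at 542 to 738 CPM with diclofenac and 57.6 to 65.1 CPM with acetaminophen in batch 1 (-3.44 ± 0.17 in batch 1 and -2.48 ± 0.14 in batch 2 between the drugs). Hsp90b1 (GRP94), the chaperone of the HSP90 family in the reticulum, differed by -2.74 ± 0.17 in batch 1 and -1.77 ± 0.16 in batch 2. Hspa5 (BiP), the central chaperone and sensor, rose with both drugs, by 1.69 ± 0.44 in batch 1 and 2.23 ± 0.42 in batch 2 with acetaminophen and 2.18 ± 0.44 in batch 1 and 3.12 ± 0.41 in batch 2 with diclofenac, and its difference of -0.49 ± 0.41 in batch 1 and -0.89 ± 0.47 in batch 2 did not pass the threshold (adjusted p = 0.299 and 0.0901; edgeR). That difference was called under 4 other settings, with total counts (mean -1.21), with no filter (-0.75), with only the wells of both drugs and vehicle fitted (-0.66) and with the plate column as a block (-0.72).

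The endoplasmic reticulum stress element, a CCAAT box and a CCACG stretch with a fixed spacer between them, searched on both strands, was in 8 of 19 promoters of this list, 42.1%, against 0.0765% of all. The windows of Hspa5 and Creld2 are shown since both carry the element while Creld2 passed the test between the drugs and Hspa5 did not. They lie at chr3:38452953-38453011 and chr7:121789219-121789277, both on the plus strand of GRCr8 (RefSeq), and capitals mark the element.
Hspa5: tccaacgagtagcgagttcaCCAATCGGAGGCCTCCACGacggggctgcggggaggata
Creld2: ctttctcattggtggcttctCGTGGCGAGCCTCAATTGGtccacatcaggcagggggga

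Metallothioneins, small cysteine-rich proteins that bind zinc and other metals, rose with diclofenac. Mt1 held 78.8, 92.3 and 74.8 CPM in batch 1 vehicle wells, 128, 90.5 and 121 CPM with acetaminophen and 3238, 2908 and 2973 CPM with diclofenac. Batch 2 vehicle wells held 236 to 483 (median 404) CPM, acetaminophen wells 403, 326 and 297 CPM and diclofenac wells 4635, 5472 and 6737 CPM. Acetaminophen overlapped vehicle in both batches, and diclofenac lay above all wells. L2FC between the drugs was -4.75 ± 0.50 in batch 1 and -4.04 ± 0.43 in batch 2 for Mt1 (adjusted p = 2.48e-13 and 1.61e-13; edgeR), and -3.36 ± 0.32 in batch 1 and -4.50 ± 0.34 in batch 2 for Mt2A. Only 7 genes of this list were tested, and Slc39a10, a zinc importer, was higher with acetaminophen (mean 2.67). The metal response element, TGCACNC or TGCGCNC on both strands, was in 4 of 5 promoters of the list and in 21.2% of all promoters, so a match is common. The window of Mt1 is shown for its repeated copies (capitals). It lies at chr19:10833004-10833171 on the minus strand of GRCr8 (RefSeq).
Mt1: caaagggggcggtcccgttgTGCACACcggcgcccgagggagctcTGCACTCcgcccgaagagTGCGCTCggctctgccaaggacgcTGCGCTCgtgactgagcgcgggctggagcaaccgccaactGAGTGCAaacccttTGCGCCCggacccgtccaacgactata

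Lipid oxidation genes were mostly lower with acetaminophen than with diclofenac. PPARα is the fatty acid sensor that drives peroxisomal and mitochondrial oxidation in the liver. Of 38 tested genes of its list, 12 rose and 9 fell with diclofenac, shares near the 24.7% and 24.8% of all genes. With acetaminophen 5 rose and 22 fell, where 30.2% and 31% of all genes did. Between the drugs 27 were lower and 2 higher with acetaminophen, where 27.3% and 27.1% were (median -1.45). Acot2, a mitochondrial thioesterase, held 6.28, 8.8 and 6.08 CPM in batch 1 vehicle wells, 2.36, 2.01 and 2.05 CPM with acetaminophen and 143, 161 and 163 CPM with diclofenac, and the 3 groups did not overlap. Its L2FC between the drugs was -6.19 ± 0.25 in batch 1 and -5.04 ± 0.25 in batch 2. Acot1, its close cytosolic relative, was 25.3-fold (95% counting interval 8.45 to 124) higher with diclofenac in batch 1 and at least 6.01-fold higher in batch 2. Detector oligos could be shared between such paralogs, so their split is uncertain.

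Cyp4a1, a fatty acid hydroxylase and standard PPARα target, rose with diclofenac from 1.05 to 2.24 to 34.4 to 79.7 CPM in batch 1 and from 0.847 to 2.37 to 7.19 to 16.4 CPM in batch 2. Acetaminophen wells at 0.513 to 1.35 and 1.14 to 2.15 CPM overlapped vehicle. Plin2, the coat protein of lipid droplets, went from 284 to 310.0 CPM to 7.41 to 17.9 CPM with acetaminophen and 431 to 676 CPM with diclofenac in batch 1, and from 233 to 296 to 8.7 to 13.9 and 353 to 419.9 CPM in batch 2. The drugs differed by -5.64 ± 0.16 in batch 1 and -5.11 ± 0.14 in batch 2. Ppara itself fell with both drugs (mean L2FC -3.22 with acetaminophen and -2.60 with diclofenac).

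Hypoxia and glycolysis genes held no fixed direction between the drugs. Of 30 tested genes of the list 14 rose and 2 fell with diclofenac, where 24.7% and 24.8% of all genes did. Acetaminophen raised 7 and lowered 4, where 30.2% and 31% of all genes rose and fell. Between the drugs 6 were lower and 3 higher with acetaminophen, shares below the 27.3% and 27.1% of all genes. In batch 2 after subtracting the plate difference 3 were lower and 9 higher, where 2926 and 2881 of all 10197 genes were. The direction of this list thus did not hold there. Pfkfb3, which makes the activator of phosphofructokinase, differed by -4.04 ± 0.18 in batch 1 and -2.79 ± 0.23 in batch 2.

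NRF2 targets such as Nqo1 and Gclc rose with acetaminophen, although the list was mixed. NRF2 is the factor that electrophiles release to raise glutathione synthesis and quinone reduction. Nqo1, NAD(P)H quinone dehydrogenase, held 65.7, 60.5 and 52.1 CPM in batch 1 vehicle wells, 294, 512 and 415 CPM with acetaminophen and 32.1, 63.6 and 33 CPM with diclofenac. In batch 2 it held 53.4 to 63.6 (median 59.3) CPM, 316, 424 and 479.8 CPM and 32.9, 30.4 and 28.4 CPM. Acetaminophen wells lay above all others, with L2FC against vehicle of 2.78 ± 0.19 in batch 1 and 2.78 ± 0.16 in batch 2, and diclofenac was lower than vehicle, with overlapping wells in batch 1 (-0.47 ± 0.19 in batch 1 and -0.95 ± 0.18 in batch 2). Gclc, the catalytic subunit of the rate-limiting enzyme of glutathione synthesis, moved the same way, from 244 to 263 CPM to 606 to 696 CPM with acetaminophen and down to 69.8 to 93.1 CPM with diclofenac in batch 1. Between the drugs it differed by 3.03 ± 0.14 in batch 1 and 2.92 ± 0.16 in batch 2 (adjusted p = 1.27e-29 and 6.90e-28; edgeR). Txnrd1, thioredoxin reductase, differed by 2.82 ± 0.38 in batch 1 and 2.62 ± 0.37 in batch 2.

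Hmox1, heme oxygenase, rose with both drugs, by L2FC 2.71 ± 0.15 in batch 1 and 2.34 ± 0.26 in batch 2 with acetaminophen and 2.00 ± 0.14 in batch 1 and 1.51 ± 0.26 in batch 2 with diclofenac, and their difference of 0.70 ± 0.14 in batch 1 and 0.84 ± 0.31 in batch 2 lost its call in the ST assay (mean 0.57), with total counts (0.24) and without the third acetaminophen well of batch 2 (0.66). Across 33 tested genes of the NRF2 list, 14 rose and 8 fell with acetaminophen, 9 rose and 10 fell with diclofenac, and 12 were higher and 5 lower with acetaminophen, a balance that turned to 7 and 9 with total counts. Of all genes 27.1% were higher and 27.3% lower. The antioxidant response element TGACNNNGC was in 7 of 26 promoters of the list, 26.9%, and in 10.2% of all, and neither Nqo1 nor Gclc was among the matches.

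Cytosolic heat shock genes rose with both drugs, 14 of 20 with acetaminophen and 11 with diclofenac, and 7 were higher and 4 lower with acetaminophen, or 6 and 10 with total counts. Of all genes 30.2% rose with acetaminophen and 24.7% with diclofenac, and 27.1% were higher and 27.3% lower between them. Hspa1a, the inducible HSP70, held 13, 6.73 and 9.27 CPM in batch 1 vehicle wells, 325, 405 and 365 CPM with acetaminophen and 10.3, 13.1 and 9.77 CPM with diclofenac. The vehicle wells of batch 2 held 14.7 to 20.6 (median 16.8) CPM, acetaminophen wells 385, 337 and 372 CPM and diclofenac wells 177, 16.9 and 11.3 CPM. The first diclofenac well of batch 2 stood apart from the other 2, which lay near vehicle. L2FC between the drugs was 5.04 ± 0.21 in batch 1 and 2.41 ± 0.38 in batch 2. Without that well the batch 2 difference was 4.71, and diclofenac against vehicle was -0.31 (adjusted p = 0.331; edgeR) in place of 1.99 ± 0.32. Hspa2, a relative expressed at low level in many tissues, and Ahsa2, a cochaperone of HSP90, differed by 4.45 ± 0.43 in batch 1 and 3.18 ± 0.33 in batch 2 and by 2.14 ± 0.23 in batch 1 and 2.17 ± 0.19 in batch 2. Subtracting the plate difference left 2.16 for Hspa2 in batch 2 (adjusted p = 0.0403; edgeR).

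Of 25 p53 targets tested, 16 rose with acetaminophen and 8 with diclofenac, where 30.2% and 24.7% of all genes rose. Between the drugs 12 were higher and 3 lower with acetaminophen (9 and 5 with total counts), where 27.1% and 27.3% of all genes were. Cdkn1a (p21), the inhibitor of cyclin-dependent kinases, held 4.42, 6.9 and 4.32 CPM in batch 1 vehicle wells, 14.8, 11.4 and 13.9 CPM with diclofenac and 42.8, 53.6 and 56.4 CPM with acetaminophen. In batch 2 the same order was 7.46 to 11.3 (median 8.81), 29, 24.1 and 22.8 and 53.6, 49 and 51.1 CPM. The groups did not overlap in either batch, and the drugs differed by 1.93 ± 0.27 in batch 1 and 1.02 ± 0.20 in batch 2. Pmaip1 (NOXA), a BH3-only death protein, followed the same order (2.72 ± 0.27 in batch 1 and 2.18 ± 0.29 in batch 2 between the drugs), whereas Plk2 rose with acetaminophen (mean L2FC 1.92) and had a mean of -0.52 with diclofenac.

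NF-κB feedback and chemokine genes were mostly lower than vehicle with diclofenac. Of 26 tested genes of the NF-κB and chemokine list 17 fell with diclofenac, where 24.8% of all genes fell, and 9 rose and 6 fell with acetaminophen, where 30.2% rose. Between the drugs 15 were higher and 2 lower with acetaminophen (11 and 3 with total counts), where 27.1% and 27.3% of all genes were. Ccl2, the monocyte attractant, held 10.1, 10.7 and 17.1 CPM in batch 1 vehicle wells, 58.3, 109 and 64.6 CPM with acetaminophen and 1.56, 0.712 and 0.32 CPM with diclofenac. In batch 2 it held 3.00 to 11.4 (median 6.77) CPM, 17.9, 30.4 and 41.7 CPM and 0.248, 0.244 and 0.42 CPM. It rose with acetaminophen and fell with diclofenac, and acetaminophen wells of batch 2 were 98.8-fold (95% counting interval 47.7 to 247) higher. Ccl20, which attracts lymphocytes, was 32.1-fold (95% counting interval 10.5 to 160.3) higher with acetaminophen than with diclofenac in batch 1 and by 4.00 ± 0.61 on the log2 scale in batch 2. Its acetaminophen wells overlapped vehicle in both batches. Summed Kupffer cell and leukocyte markers moved the same way in batch 2, at 57.2 to 87.0 CPM with acetaminophen and 35.8 to 42.4 CPM with diclofenac, and overlapped in batch 1. The list median of L2FC between the drugs was -0.03 over 10 tested Kupffer cell markers. Summed stellate cell and fibroblast markers were 275 to 300.1 against 171 to 192 CPM in batch 1 and 191 to 364 against 76.8 to 90.5 CPM in batch 2, a gap carried by Reln, while the list median was -0.52. The part of these markers in this result was not tested.

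Egr1, an immediate early factor, was at 108, 108 and 64.8 CPM with diclofenac in batch 1, against 1115 to 1155 CPM with vehicle and 1577 to 2610.3 CPM with acetaminophen. In batch 2 acetaminophen wells held 541 to 705 CPM and overlapped vehicle wells at 435 to 656 CPM (L2FC 0.11 ± 0.24). The diclofenac wells there held 386, 96 and 37.4 CPM, and the first stood apart again. The difference between the drugs was 4.48 ± 0.22 in batch 1 and 1.79 ± 0.28 in batch 2, and 3.19 in batch 2 without that well. Junb and Ier5, of the same early class, differed by 3.37 ± 0.32 in batch 1 and 2.57 ± 0.30 in batch 2, and by 3.12 ± 0.19 in batch 1 and 1.87 ± 0.19 in batch 2. Without the same well Junb differed by 3.50 in batch 2, and diclofenac against vehicle was -0.9998 (adjusted p = 0.00386; edgeR) in place of -0.07 ± 0.28. Of 25 tested genes of the immediate early and AP-1 list 11 were higher and 2 lower with acetaminophen, or 9 and 5 with total counts, where 27.1% and 27.3% of all genes were higher and lower.

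The remaining lists were smaller or mixed. Acat2, the cytosolic thiolase that opens sterol synthesis, went from 27.4 to 40.4 CPM to 255 to 319 CPM with acetaminophen and 7.79 to 13.9 CPM with diclofenac in batch 1, and from 12.2 to 18.2 to 294 to 393 and 8.54 to 13.4 CPM in batch 2. Idi1, the isomerase of the same pathway, was higher with acetaminophen by 2.87 ± 0.21 in batch 1 and 2.22 ± 0.23 in batch 2. Of 23 tested genes of the cholesterol synthesis list 7 were higher with acetaminophen, a share of 30.4% near the 27.1% of all genes, and 3 were lower, but 6 and 7 with total counts. Acss2, which makes acetyl-CoA from acetate, was higher with acetaminophen by a mean of 4.78. Cyp3a2, a target of the xenobiotic receptor PXR, rose with acetaminophen (mean L2FC 1.93) and differed from diclofenac by 3.12 ± 0.22 in batch 1 and 1.85 ± 0.21 in batch 2. Cyp2b2, a target of the related receptor CAR, stood at 4.36, 23.1 and 4.8 CPM with diclofenac and 0.337 to 0.513 CPM with acetaminophen in batch 1, and at 1.61 to 4.2 and 0.161 to 1.15 CPM in batch 2. The second diclofenac well of batch 1 stood apart, and without it the mean difference went from -3.23 to -2.60. The call was lost with own-plate vehicle wells in batch 2 (-1.10 there, adjusted p = 0.298; edgeR), and without the third acetaminophen or the third diclofenac well of batch 2 (means of -3.02 and -2.95). Of 6 tested AhR targets 3 were higher and 1 lower with acetaminophen, where 27.1% and 27.3% of all genes were, with a list median of 1.99 between the drugs and of 0.89 with acetaminophen and -1.68 with diclofenac against vehicle. Tiparp, one of them, was higher with acetaminophen (mean 2.66), although Cyp1a1 was not.

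Of 25 proteasome subunits 13 rose with acetaminophen, where 30.2% of all genes rose, and 4 with diclofenac, where 24.7% rose. Between the drugs 8 were higher with acetaminophen, 32.0% against 27.1% of all genes, and 3 lower, which reversed to 2 and 11 with total counts. Psmd3, a subunit of the regulatory particle, was higher by 1.08 ± 0.13 in batch 1 and 1.22 ± 0.14 in batch 2. Tubb4b, a β-tubulin, stood at 2747 to 4519 CPM with acetaminophen, 307 to 431 CPM with diclofenac and 664 to 762 CPM with vehicle in batch 1. The cytoskeleton list that holds it fell mostly with each drug (18 of 33 with acetaminophen and 24 with diclofenac, against 31% and 24.8% of all genes). Of 27 tested genes of the cell cycle list 8 were higher with acetaminophen, a share of 29.6% near the 27.1% of all genes, and 4 were lower, or 5 and 6 with total counts. Tk1, thymidine kinase, was lower, with diclofenac 13.4-fold (95% counting interval 5.56 to 42) higher in batch 1 and a difference of -3.52 ± 0.42 in batch 2.

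Genes outside the lists held several of the widest gaps. Mest, an imprinted gene of the hydrolase family, was 1024-fold (95% counting interval 399 to 3760.0) higher with acetaminophen in batch 1, and by 8.53 ± 0.45 on the log2 scale in batch 2. Subtracting the plate difference left 6.87 for Mest in batch 2. Pcdh17, a protocadherin, was at 0 in all diclofenac wells of batch 1 and reached 73.9 to 88.6 CPM with acetaminophen, which was at least 179-fold higher there and 294-fold (95% counting interval 126 to 907) higher in batch 2. After the plate difference was subtracted in batch 2, Pcdh17 still had an L2FC of 5.33 but did not pass the threshold (adjusted p = 0.943; edgeR), and the subtracted term rests on the 2 counts of 1 vehicle well. Nptx1, a pentraxin best known from neurons, was 837-fold (95% counting interval 286 to 4063) higher in batch 1 and 274-fold (95% counting interval 107 to 1007) higher in batch 2. Vehicle wells of batch 1 held 0 counts of Pcdh17. On the other side, Ipcef1, a partner of cytohesin, was 279-fold (95% counting interval 76.9 to 2304) higher with diclofenac in batch 1 and 148-fold (95% counting interval 63 to 456) higher in batch 2, and held 3 counts in all in the vehicle wells of batch 1. Adm2, a peptide of the adrenomedullin family, was at least 7.6-fold higher with diclofenac in batch 1 and 53.2-fold (95% counting interval 17.9 to 260.4) higher in batch 2. Neil2, a DNA glycosylase, was 66.2-fold (95% counting interval 22.5 to 323) and 46.6-fold (95% counting interval 22.4 to 117) higher. Rsad2 (viperin), an interferon-induced gene, was 37.9-fold (95% counting interval 12.8 to 185) higher with diclofenac in batch 1. In batch 2 it held 118, 59 and 37.8 CPM with diclofenac, where the first well stood apart, and 0.714 to 1.13 CPM with acetaminophen. After the plate difference was subtracted in batch 2 its difference was -6.10, close to -6.22 ± 0.89 before, but did not pass the threshold (adjusted p = 0.0548; edgeR).

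The cyclooxygenases, the targets of diclofenac, were scarcely expressed. Ptgs1 held 4.38, 3.21 and 6.93 CPM with acetaminophen and 2.8, 2.71 and 2.88 CPM with diclofenac in batch 1, and 0.716, 0.857 and 4.19 and 2.23, 1.1 and 1.82 CPM in batch 2. Its difference of 0.77 ± 0.37 in batch 1 and 0.12 ± 0.45 in batch 2 was not called (adjusted p = 0.0601 and 0.825; edgeR), and the wells overlapped in batch 2. Ptgs2 was below the filter, at a mean of 6.87 counts over all wells of the assay, and held 3.81 to 6.16 CPM with acetaminophen, 3.52 to 4.70 CPM with diclofenac and 0.518 to 2.08 CPM with vehicle in batch 1. In batch 2 these were 0.287 to 0.644, 0.488 to 1.74 and 0 to 0.143 CPM, and the drugs overlapped in both batches.

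Batch 2 allowed each drug its own vehicle wells. With those, 1449 genes were lower and 1143 higher than vehicle with both drugs in both batches, near the 1518 and 1229 with all vehicle wells. Plasma protein genes in batch 2 were 50 higher and 1 lower with acetaminophen after the plate difference was subtracted, and genes of the integrated stress response 1 higher and 27 lower. Of all 10197 genes 2881 were higher and 2926 lower after the same subtraction. Single differences after the subtraction were -9.99 for Fgf21, -3.97 for Mt1, 3.69 for Nqo1 and -5.35 for Plin2. Cdkn1a was 0.84 and Hmox1 1.74.

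**Figure D4:**
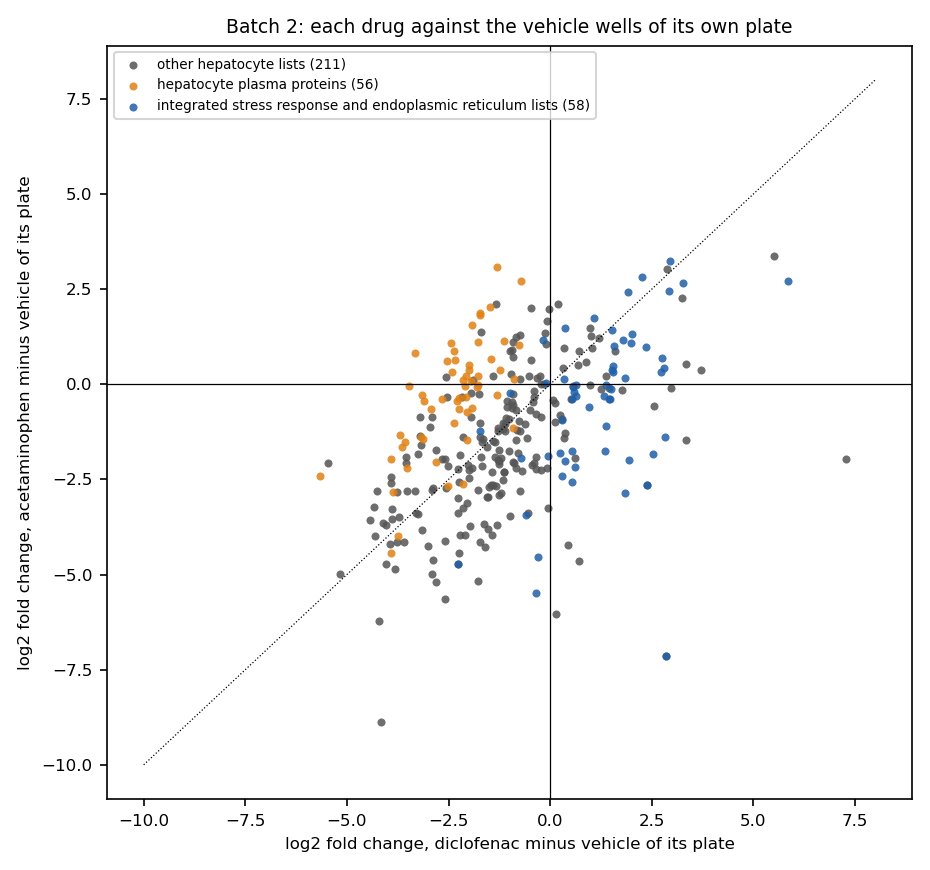
Batch 2 L2FC of diclofenac 400 µM (x axis) and acetaminophen 10000 µM (y axis), each against the 3 vehicle wells of its own plate, with 1 point per tested gene and a dotted line of equal change. Most hepatocyte genes (grey, 211) lie in the lower left with both drugs, plasma protein genes (orange, 56) are shifted to the left at mixed heights, and stress genes of the ATF4 and reticulum lists (blue, 58) lie mostly to the right.

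The concentrations of the drugs differ by design, so the comparison was repeated at 400 µM of each. Acetaminophen at 400 µM differed from vehicle at 3 genes upward and 2 downward in both batches, and at 143 and 82 in batch 2 alone. Against diclofenac at 400 µM it was higher at 2352 genes and lower at 2260. Here 55 of 56 plasma protein genes were higher and 23 of 34 integrated stress response genes lower with acetaminophen. Of all 10197 genes, 2352 were higher and 2260 lower. Because acetaminophen at 400 µM was near vehicle, these counts largely repeat those of diclofenac against vehicle. They do not separate drug from concentration. At 400 µM acetaminophen Hspa1a held 4.11 to 13.4 CPM in batch 1 and 13.1 to 19.7 CPM in batch 2, and Ccl2 held 10.1 to 13.7 and 4.56 to 12 CPM, each overlapping the vehicle wells of its batch. Nqo1 held 57.2 to 74.1 CPM in batch 1, overlapping vehicle, and 73.1 to 96.7 CPM in batch 2, above every vehicle well there and below every well at 10000 µM.

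The ST assay, which read the same lysates and is not independent of them, tested 491 of the genes called higher with acetaminophen. It called 394 of these in the same direction and 0 in the other. Of 447 genes called lower it called 397 in the same direction and 0 in the other.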

How the data were processed

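The authors aligned TempO-Seq reads with STAR 2.5.3a (per the submitters' processing notes, which name the build rn6) and counted them with the Tempo-SeqR package, and the deposited values are raw counts per probe, 1 row per well. Columns of the deposited tables that hold total counts and labels were not used as measurements. Probes of 1 symbol were summed (39 WT probes took the ST symbol through their probe number), giving 20958 WT genes, of which 10197 with a mean of at least 10 counts over all wells of the assay were tested, and 1760 of 2604 in ST. Each batch was fitted with all its treatment groups in edgeR 4.0.16 (R 4.3.3, limma 3.58.1) with TMM scaling and the quasi-likelihood test. A gene was called at an adjusted p (Benjamini-Hochberg) under 0.05 in both batches with the same sign. L2FC is given ± SE, and CPM are TMM-scaled and comparable within a batch. Promoter letters came from RefSeq (GRCr8), and 92 of 120 named genes had an entry.

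Members and lists were chosen with earlier results of these data known. Named genes are the 3 with the lowest mean L2FC among those lost with both drugs and the 2 with the largest difference between drugs in each hepatocyte list, the 3 with the largest difference in each other list, the 10 per direction with the largest smaller-of-batches difference, leaving out provisional symbols, and 16 defining genes. Atf4, Phgdh and Ppp1r15a were added after their values were seen. Values of some named genes are not reported here. Of 856 listed genes 643 were tested, 114 were below the filter and 99 had no match. With all wells of a side at 0, a fold is a bound from a floor of 3 counts per well. ST libraries held 583036 to 2040060 reads. In simulated data for this comparison over 10197 genes, 22% of genes changed 2-fold and 97% of genes changed 4-fold were called, and 0 of 9997 unchanged genes. The simulation gave all genes the same spread and all groups of a batch the same base profile. It changed few genes and held no plate difference, so these shares need not hold in the real comparison. Replicate numbers follow accession order and pair nothing, so a block on the plate column was an alternative. Other alternatives were DESeq2 1.42.0, RLE and total count scaling, no filter, a fold limit, 1 fit over batches, fewer groups, own-plate vehicle wells, single probes, the ST assay and leaving out each well.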

Additional observations from a re-analysis of the deposited data

Results flagged for a closer look

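Each of 120 genes named for this contrast was checked in the 6 vehicle wells of batch 2 for a well whose gap to the next took more of the group's range than Dixon's critical value at 95%, on log2(CPM + 1). Chance flags about 1 in 20 such groups, and 6 were flagged: Acot1 (1), Pcdh17 (1), Psmd6 (0.763), Ddit3 (0.731), Hspa5 (0.681) and Creld2 (0.666). Acot1, Psmd6, Ddit3 and Hspa5 share the sixth vehicle well, and for Acot1 and Pcdh17 the value is 1 well with counts against 5 wells at 0.

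The difference between the drugs depended on the batch, by the interaction test in edgeR with Benjamini-Hochberg adjustment, at 1082 genes (10.6% of those tested) and at 26 of 96 named genes, none of which had opposite called signs. Values are L2FC of acetaminophen minus diclofenac in batch 1 minus the same in batch 2. Diclofenac-side differences were wider in batch 1 for Cyp4a1 (-3.33), Stc2 (-2.22), Pck2 (-1.40), Pfkfb3 (-1.23), Acot2 (-1.13), Hsp90b1 (-0.96), Creld2 (-0.94) and Ddit3 (-0.83), and likewise for Akr1d1 (-2.16), Cyp2c22 (-1.74), Bnip3 (-1.70), Hk2 (-1.60), Abcc2 (-1.38), Gpam (-1.04) and Hnf4a (-0.90). Acetaminophen-side differences were wider in batch 1 for Egr1 (2.71), Hspa1a (2.65), Cxcl11 (2.02), Gadd45b (1.36), Cyp3a2 (1.29), Ier5 (1.28), Atf3 (1.23), Thrsp (1.04), Cdkn1a (0.94) and Tubb4b (0.65).

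The first diclofenac well of batch 2 held 177 CPM of Hspa1a against 16.9 and 11.3 CPM in the other 2, and 386 CPM of Egr1 against 96.0 and 37.4 CPM. Without it the batch 2 difference between the drugs was 4.71 for Hspa1a, 3.19 for Egr1, 3.58 for Cxcl11 and 2.32 for Ier5. Rat, plate layout and sequencing cannot be told apart in these batch differences.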

How the results depend on the processing

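The counts of genes higher and lower with acetaminophen than with diclofenac (2766 and 2788), lower and higher than vehicle with both drugs (1518 and 1229), and different at 400 µM (4612) moved by more than 1.5 times under 3 settings. With an absolute L2FC of at least 1 they were 1498, 1483, 830, 320 and 2242. With total counts and no TMM the first pair was 1464 and 4409. With both batches in 1 fit, which calls on the mean of the batches, the second pair was 2301 and 2069. Leaving out each of the 21 wells in turn gave 2624 to 2768, 2609 to 2791, 1399 to 1554 and 1122 to 1225. With the plate column as a replicate block, which pairs wells by number alone, the first pair was 2469 and 2573. DESeq2, RLE size factors, no filter, single probes, fewer groups and own-plate vehicle wells stayed within 1.5 times. For named genes, 3568 of 3618 alternative values kept direction and call, 41 lost the call and 6 gained it. Psmd6, Bub1b and Ptgr1 lost it most often. Direction turned for Atf3 with total counts (-0.0015), and for Ptgs1 with total counts (-0.080) and without the third acetaminophen well of batch 2 (leave-one-out range -0.16 to 0.66), both not called between the drugs. In simulated data 22% of genes changed 2-fold were called, so a gene that was not called is not shown to be equal.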
